A study of Solanum tuberosum with 72 samples.

Results

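The genes described are LOC102604043 (StCDPK4, a calcium-dependent protein kinase), PKIN1 (a kinase of the SnRK1 family) and LOC102599567 (StP2C, a protein phosphatase 2C). They were chosen by gene name as 3 signalling enzymes that add or remove phosphate groups, and each was matched to 1 clone printed at 2 spots. They make up 3 of the 11037 clones with a value and 6 of the 32448 spots of the arrays. No clone annotated with several symbols named any of them (0 clones). The data come from 72 spotted cDNA arrays of seedlings of the potato variety Gilroy, raised from true seed for 5 weeks at 25 °C in hydroponic boxes with a day of 16 h and a night of 8 h. Seedlings then received medium at 4 °C and were kept on ice (cold), received medium at 35 °C and were kept in a water bath (heat), received medium with added sodium chloride (salt), or had the medium changed without a stress (no stress). Leaves, harvested as the parts above the root, and roots were taken after 3, 9 and 27 h, which gives 24 groups of 3 arrays. A sample pooled 6 plants from 2 boxes, and per the labels the experiment was done independently 3 times. The labels give the salt dose both as 150 mM and as 100 mM, and which was used was not settled here.

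Calcium-dependent protein kinases carry a calcium-binding domain and a kinase domain in 1 protein, so that a rise in cell calcium switches them on. In potato StCDPK4 and its relative StCDPK5 are known to phosphorylate a membrane NADPH oxidase that makes reactive oxygen in defence. SnRK1 kinases are the plant counterparts of yeast SNF1 and animal AMPK. They act as complexes with beta and gamma subunits, and are known for shifting metabolism when sugar or energy is scarce. Protein phosphatases of type 2C remove phosphate from serine and threonine, and members of the family switch off abscisic acid, calcium and MAP kinase signalling. The sources used here do not place StP2C in a subgroup. No sequence of the 3 clones was used here.

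Each array set a Cy3-labelled query, from stressed plants or from a further no-stress sample, against a Cy5-labelled reference pooled from 6 boxes of control plants, matched in tissue and time. The deposited value is a log2 ratio. The table does not write the direction of the ratio. It was read as query over reference from the channel names, so a positive value likely means higher in the query. If the ratio runs the other way, every higher and lower below trades places. A log2 ratio carries no level, so values of different genes, and the leaf or root identity of a sample, cannot be compared or checked through it. Whole leaves and roots were measured, so a change in the number of cells of a type and a change in RNA per cell cannot be told apart.

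StCDPK4 and PKIN1 had a value on every array (72 of 72), whereas StP2C had a value on 25 of 36 leaf arrays and 35 of 36 root arrays. Both spots of a clone gave similar ratios, with a correlation over arrays of 0.917 for StCDPK4 and 0.916 for PKIN1 (72 arrays each) and 0.97 for StP2C (the 39 arrays with both spots). The median of this correlation over all clones was 0.831. The 39 arrays of StP2C include all its measured cold arrays, with their large ratios. Its arrays with a value on 1 spot were all no-stress, heat or salt arrays. The largest gap between its spots was 0.988 (-0.689 and 0.299, salt leaves at 27 h, replicate 1). Most leaf arrays without a value of StP2C were no-stress or heat arrays. Between 15580 and 20545 spots had a value on an array, and the medians of the arrays lay between 0 and 0.014. Clones with symbols of photosynthesis genes were followed as shoot markers. The FBPase clones among them also carry the synonym cy-F1, and whether they stand for a photosynthesis enzyme was not checked. The markers show only whether a root sample held more or less of their transcripts than its control pool. Their median log2 ratio on each root array lay between -1.29 and -0.21 in cold, -2.22 and 0.09 in heat, -0.59 and -0.04 in salt, and -0.28 and 0.29 with no stress.

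**Figure D1:**
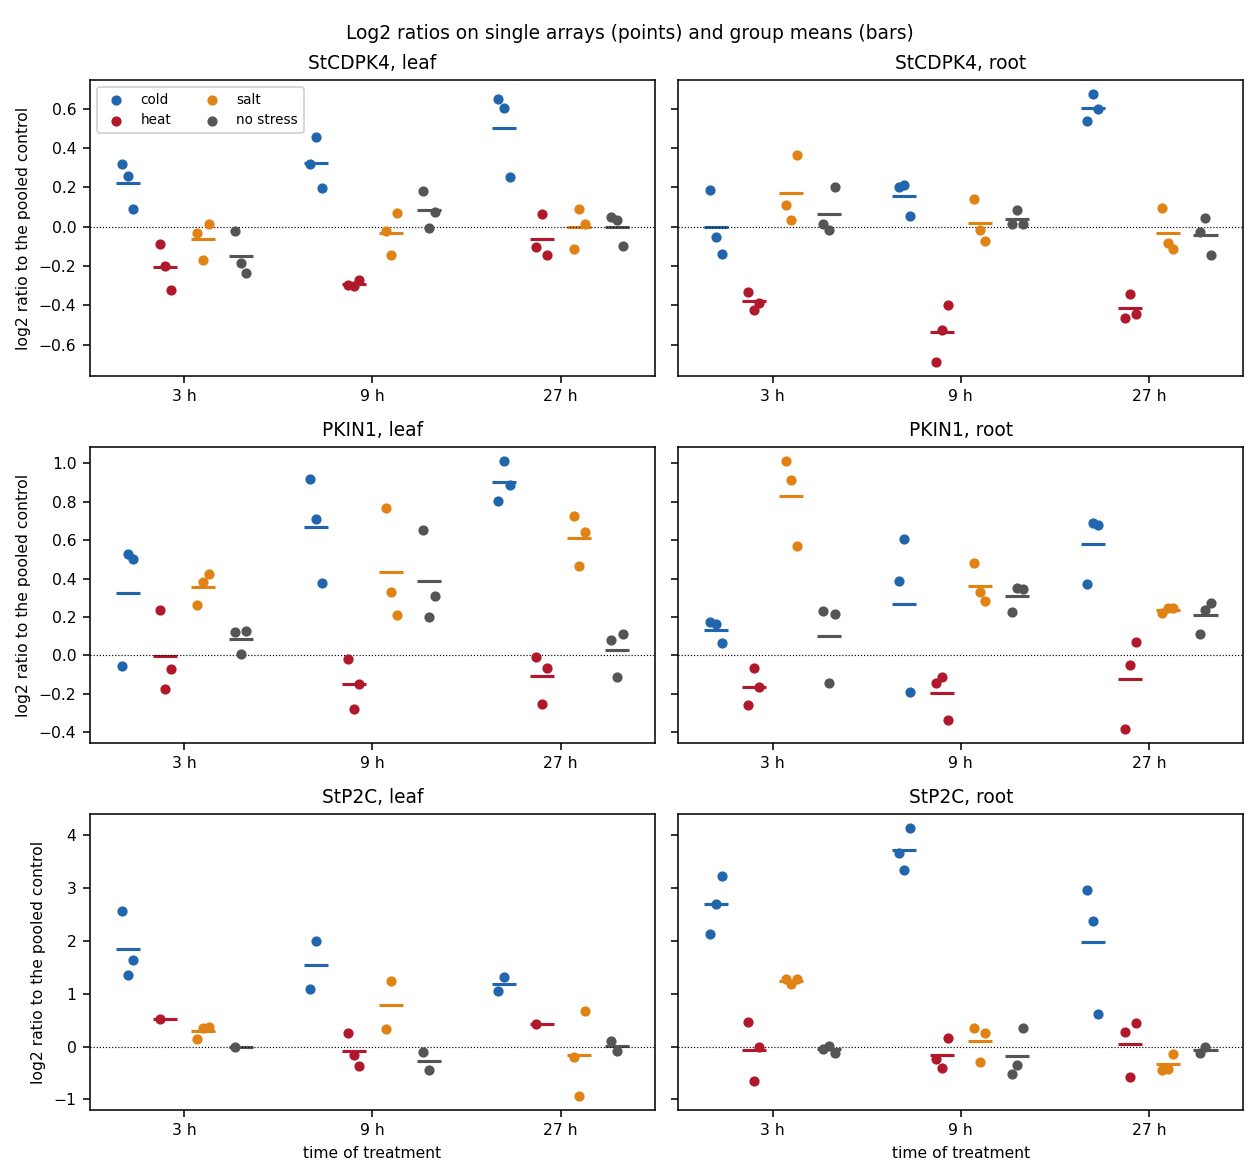
Log2 ratio to the pooled control (vertical axis) of StCDPK4, PKIN1 and StP2C in leaf (left) and root (right) at 3, 9 and 27 h. Points are single arrays and bars are group means. Cold arrays of StP2C in root at 9 h sit between 3.35 and 4.15, above every no-stress array of that time, and heat arrays of StCDPK4 in root sit below the no-stress arrays at each time.

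Each stress was set against its matched no-stress arrays (tissue and time alike) with limma's moderated test, fitted over the 36 arrays of a tissue. The 3 stresses share those no-stress arrays. A clone was tested where at least 2 of 3 arrays of both groups had a value, and a Benjamini-Hochberg adjusted p under 0.05 over all clones of the comparison is called a pass. All differences are on the log2 scale, stress minus no stress, and SE is the standard error of the fit. Statements that groups of arrays did or did not overlap describe the values only. The share of all clones without overlap was not counted.

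The no-stress arrays were first set against 0, since they compare control with control. None of the 3 genes passed there at any tissue or time (0 passes), where 0.0613, 0.747 and 0.00985% of clones passed in leaf and 5.06, 3.28 and 1.44% in root at 3, 9 and 27 h. At an unadjusted p under 0.05 PKIN1 alone was above 0, at 9 h in both tissues, with means of 0.39 in leaf and 0.31 in root (limma adjusted p 0.0976 and 0.102).

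StCDPK4, the calcium-dependent kinase, was higher after cold in both tissues and lower after heat in roots. It passed in 6 of 18 comparisons, 3 higher and 3 lower, and in none with salt. The shares of all tested clones that passed in these comparisons, as background, were 16.8, 22.6 and 21.6% in cold leaves and 13.2, 26.3 and 39% in cold roots at 3, 9 and 27 h. They were 0.679, 0.18 and 0.644% in heated leaves and 7.25, 5.82 and 20% in heated roots, then 0.808, 7.48 and 11.9% in salt leaves and 21.5, 4.37 and 2.4% in salt roots. Passes were thus common among all clones in cold at every time, and rarer in heat except in roots at 27 h.

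In roots after 27 h of cold, StCDPK4 had log2 ratios of 0.54, 0.68 and 0.60, against -0.02, 0.04 and -0.14 in no-stress roots. All cold arrays lay above all no-stress arrays. The difference was 0.65 (SE 0.10, limma adjusted p 1.56e-05), a 1.56-fold change. At the earlier times the groups overlapped. The cold roots gave 0.19, -0.05 and -0.14 at 3 h, against 0.01, -0.01 and 0.20 in no-stress roots, and the difference of -0.07 did not pass (limma adjusted p 0.743). At 9 h the cold roots gave 0.20, 0.21 and 0.06, against 0.02, 0.08 and 0.01 in no-stress roots, with a difference of 0.12 that did not pass (95% interval -0.09 to 0.33).

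The size of the cold difference in roots changed with time. It was 0.71 larger at 27 h than at 3 h (SE 0.15, limma adjusted p 0.000926; 21.4% of all clones passed this test) and 0.53 larger at 27 h than at 9 h (SE 0.15, limma adjusted p 0.0322; 5.64% passed). The 27 h minus 9 h pass ended without replicate number 1, 2 or 3 (adjusted p 0.0726, 0.376 and 0.275). The 27 h minus 3 h pass ended without replicate 3 (0.53, adjusted p 0.0718) and not without replicate 1 or 2. Shoot markers moved in the same groups, with 14 of 18 marker clones lower and 2 higher in cold roots at 27 h, 9 of 17 lower at 9 h and 3 of 16 lower at 3 h. Their part in the time difference was not tested.

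In leaves after 27 h of cold, StCDPK4 had 0.65, 0.60 and 0.25, against 0.05, 0.04 and -0.10 in no-stress leaves. The cold arrays all lay above the no-stress arrays, with the third replicate nearest to them. The difference was 0.51 (SE 0.11, limma adjusted p 0.00144). After 3 h the cold leaves had 0.32, 0.26 and 0.09, against -0.02, -0.18 and -0.23 in no-stress leaves, again without overlap. That difference was 0.37 (SE 0.11, limma adjusted p 0.0190), and it ended without cold replicate 1 or 2 (adjusted p 0.101 and 0.0529) and without no-stress replicate 2 or 3 (0.0675 and 0.0855). It also ended with the cold and no-stress groups alone in the fit (0.0992) and on the first spot (0.0590), 6 of 15 alternatives in all, and against 0 the cold leaves were at 0.22 (adjusted p 0.0285). After 9 h the cold leaves had 0.32, 0.45 and 0.20, against 0.18, -0.01 and 0.08 in no-stress leaves, and the difference of 0.24 did not pass (limma adjusted p 0.118).

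Of the 9 tests of leaf against root, 1 passed for StCDPK4, that of cold after 3 h. The effect of cold was 0.44 larger in leaf than in root (SE 0.14, limma over all 72 arrays, adjusted p 0.0494; 7.52% of clones passed). This pass was lost without replicate number 1, 2 or 3 (adjusted p 0.0709, 0.391 and 0.360). All leaf minus root tests took leaf and root arrays as independent, and a link between them was not checked. At 27 h the leaf minus root difference was -0.14 with a 95% interval of -0.43 to 0.15. Within leaf the cold difference did not change with time by the test, being -0.13 at 9 h minus 3 h, 0.27 at 27 h minus 9 h and 0.14 at 27 h minus 3 h (limma adjusted p 0.791, 0.587 and 0.749; 2.75, 1.01 and 1.37% of clones passed).

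Heat went with lower StCDPK4 in roots at every time. The heated roots had -0.33, -0.42 and -0.39 at 3 h, against 0.01, -0.01 and 0.20 in no-stress roots. At 9 h the heated roots had -0.69, -0.52 and -0.40, against 0.02, 0.08 and 0.01 in no-stress roots, and at 27 h they had -0.46, -0.34 and -0.44, against -0.02, 0.04 and -0.14. Heated and no-stress roots did not overlap at any of the 3 times. The differences were -0.45, -0.57 and -0.37 (SE 0.10 each, limma adjusted p 0.00842, 0.00151 and 0.0126).

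The 9 h difference passed under every alternative tried, the lowest size being -0.50. The 3 h pass ended without no-stress replicate 3 (adjusted p 0.0583), and the 27 h pass was lost on leaving out either heat replicate 1 (0.0646) or no-stress replicate 2 (0.0597). A fit of the heated and no-stress groups alone ended the 3 h and 27 h passes too (0.0980 and 0.141), and quantile normalization ended that of 27 h (-0.29, adjusted p 0.0572). Heated roots of replicate 1 stood apart in shoot markers, at -0.91, -1.04 and -2.22 at 3, 9 and 27 h. The other heated roots at 3 and 9 h had marker medians between -0.19 and 0.09, and StCDPK4 was at -0.42, -0.39, -0.52 and -0.40 on those arrays. Without heat replicate 1 the difference was -0.47 at 3 h, -0.50 at 9 h and -0.35 at 27 h. At 27 h the heated roots of replicates 2 and 3 also had low marker medians, at -0.515 and -0.587. In heated roots at 27 h 11 of 18 marker clones were lower by the test and 0 higher. The part of shoot markers in the heat differences was not tested.

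In heated leaves StCDPK4 had -0.29, -0.30 and -0.27 at 9 h, against 0.18, -0.01 and 0.08 in no-stress leaves. These arrays did not overlap, but the difference of -0.37 did not pass in a comparison in which 17 clones of 9448 did (SE 0.11, limma adjusted p 0.183). At 3 and 27 h the heat differences in leaf were both -0.06. The leaf minus root difference of the heat effect did not pass at 3, 9 or 27 h (0.39, 0.20 and 0.32, limma adjusted p 0.599, 0.999 and 0.445), in tests that 0, 0.0234 and 0.126% of all clones passed. Salt differences of StCDPK4 lay between -0.11 and 0.10 in both tissues, and their 95% intervals lay between -0.34 and 0.32.

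**Figure D2:**
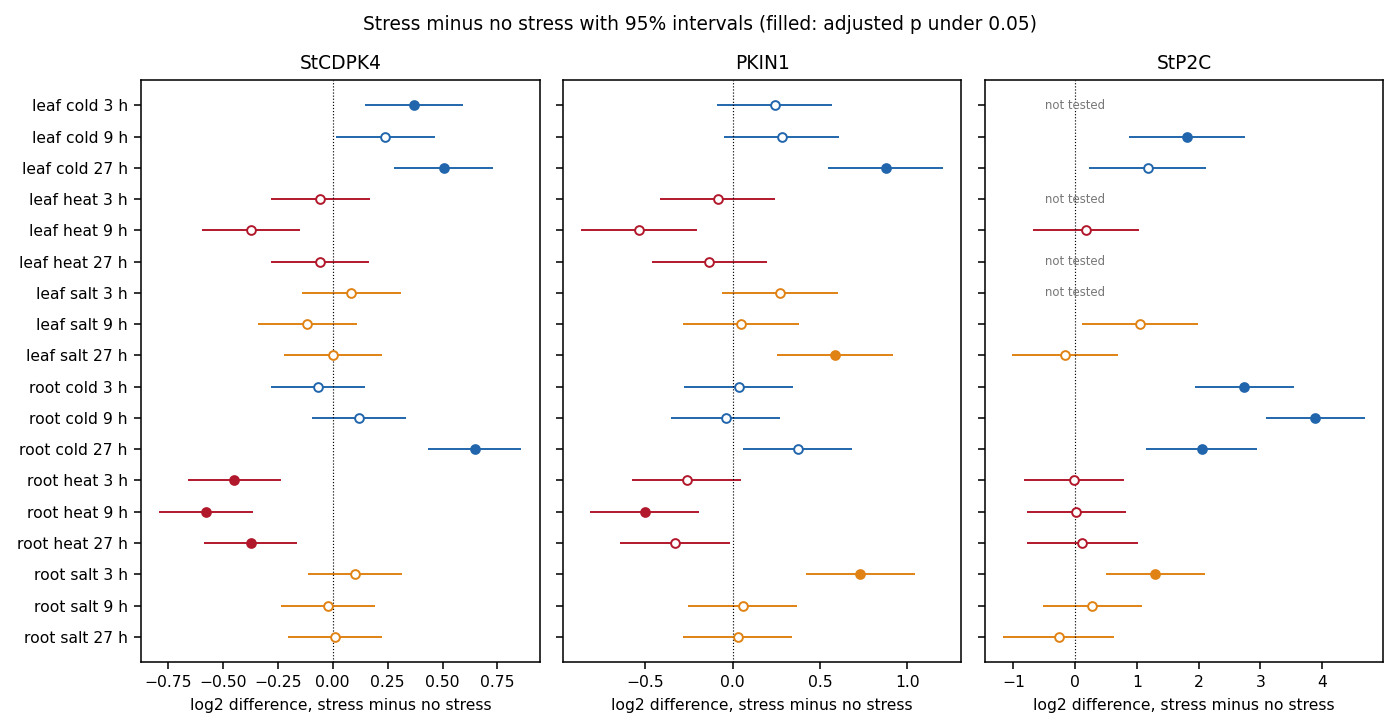
Log2 difference of each stress minus no stress (horizontal axis) for StCDPK4, PKIN1 and StP2C in 18 comparisons, with 95% intervals from limma. Filled points passed (adjusted p under 0.05), open points did not, and the axis scale differs between genes. StP2C reaches 3.89 in cold roots at 9 h, and the filled heat points of StCDPK4 lie between -0.57 and -0.37.

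PKIN1, the SnRK1 family kinase, was higher after late cold and late salt in leaves and after early salt in roots. It passed in 4 of 18 comparisons, 3 higher and 1 lower, with the same background shares as above. In cold leaves at 27 h the ratios were 0.80, 1.01 and 0.89, against 0.08, -0.11 and 0.11 in no-stress leaves. No array of 1 group reached the other. The difference was 0.88 (SE 0.16, limma adjusted p 0.000305), a 1.83-fold change.

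Salt leaves at 27 h had PKIN1 at 0.72, 0.46 and 0.64, against the same no-stress values. The groups did not overlap here either, and the difference was 0.59 (SE 0.16, limma adjusted p 0.0156). It ended without no-stress replicate 2 or salt replicate 1 or 3 (adjusted p 0.0731, 0.0625 and 0.0527) and on the first spot alone (0.0860). Salt leaves had smaller differences that did not pass at 3 h (0.27) and 9 h (0.05).

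In salt roots PKIN1 was high at the first time. The salt arrays had 1.01, 0.91 and 0.57 at 3 h, against 0.23, -0.14 and 0.21 in no-stress roots, so that the lowest salt array lay above the highest no-stress array. The difference was 0.73 (SE 0.15, limma adjusted p 0.00104), a 1.66-fold change, and it passed under every alternative tried. At 9 and 27 h the salt difference was 0.06 and 0.03, with 95% intervals of -0.26 to 0.37 and -0.28 to 0.34. The change of the salt effect over time did not pass the test over all clones: 9 h minus 3 h was -0.68 (SE 0.22, limma adjusted p 0.104) and 27 h minus 3 h was -0.70 (SE 0.22, adjusted p 0.0726). Shoot markers had medians of -0.35, -0.59 and -0.59 on the salt root arrays at 3 h, all below the 0.07, 0.03 and 0.015 of no-stress roots, while by the test 2 marker clones were higher and 1 lower of 17. Their part was not tested.

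Cold roots had PKIN1 at 0.37, 0.69 and 0.68 at 27 h, against 0.11, 0.24 and 0.28 in no-stress roots. All cold arrays lay above the no-stress arrays, and the difference of 0.37 just missed the threshold (SE 0.15, limma adjusted p 0.0535). It passed without cold replicate 1 (0.48, adjusted p 0.0268) and with array weights (0.40, adjusted p 0.0184). At 9 h the cold roots were spread widely, at 0.39, 0.60 and -0.19, against 0.23, 0.35 and 0.34 in no-stress roots, and the difference was -0.04 (95% interval -0.35 to 0.27).

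Heated roots gave the 1 lower pass of PKIN1. The heated arrays had -0.15, -0.11 and -0.34 at 9 h, against 0.23, 0.35 and 0.34 in no-stress roots. The groups did not overlap, and the difference was -0.51 (SE 0.15, limma adjusted p 0.0461). This pass ended under 10 of 15 alternatives, among them leaving out any of the 6 arrays (adjusted p between 0.0628 and 0.166). The no-stress roots of this time were themselves above 0, averaging 0.31 ± 0.07 (SD, n = 3), and against 0 the heated roots were at -0.20 (adjusted p 0.202). In leaves at 9 h heated arrays had PKIN1 at -0.02, -0.28 and -0.15, against 0.65, 0.20 and 0.31 with no stress, and the difference of -0.54 did not pass as deposited (limma adjusted p 0.193) but did after quantile normalization (-0.72, adjusted p 0.00888).

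No tissue or time difference of PKIN1 passed, in 9 and 18 tests. In leaf the largest were the cold differences of 27 h minus 3 h (0.64, SE 0.23, limma adjusted p 0.156) and 27 h minus 9 h (0.60, SE 0.23, adjusted p 0.301). Few clones of any kind passed when heat or salt was compared over time in leaf: at most 12 of 9406 clones passed in any of them (27 h minus 3 h of salt, 0.128%), with 0.011% for 9 h minus 3 h of salt and 0% for the other 4. In root 1.25, 0 and 2.89% of clones passed for salt at 9 h minus 3 h, 27 h minus 9 h and 27 h minus 3 h, and 0, 0.0347 and 0.172% for heat. The leaf minus root difference of the salt effect was -0.46 at 3 h (SE 0.22, limma adjusted p 0.274; 2.59% of clones passed) and 0.56 at 27 h (SE 0.22, adjusted p 0.321; 0.428% passed). In cold at 27 h it was 0.50 (SE 0.22, adjusted p 0.124; 14.1% passed). The pass of salt in root at 3 h and in leaf at 27 h is therefore not shown to be a difference between tissues.

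StP2C, the phosphatase, gave the largest changes of the 3 genes, and all 5 of its passes among 14 tested comparisons were higher. The other 4 comparisons, leaf cold, heat and salt at 3 h and leaf heat at 27 h, were not tested because a group had a value on only 1 array. In cold roots at 3 h the ratios were 2.14, 2.71 and 3.23, against -0.04, 0.01 and -0.11 in no-stress roots. At 9 h cold roots had 3.66, 3.35 and 4.15, against -0.51, -0.35 and 0.34, and at 27 h they had 2.96, 2.38 and 0.61, against -0.12 and -0.01 on the 2 no-stress arrays with a value. Every cold root array lay above every no-stress root array, with the third replicate at 27 h far below the other two.

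The cold differences in root were 2.74 (SE 0.39, limma adjusted p 1.65e-05), 3.89 (SE 0.39, adjusted p 1.50e-08) and 2.05 (SE 0.44, adjusted p 0.000492) at 3, 9 and 27 h. These are 6.69-fold, 14.9-fold and 4.14-fold changes. Counted from the highest difference, StP2C was number 12 of 9123 tested clones at 3 h, number 10 of 8869 at 9 h and number 139 of 8938 at 27 h. Without cold replicate 3 the 27 h difference was 2.74. Quantile normalization of the arrays brought the 9 and 27 h values to 2.51 and 1.15, and both still passed. Shoot markers, lower in cold roots as given above, had their lowest medians at 27 h (-1.27, -0.82 and -1.29), where the difference of StP2C was the smallest of the 3 times. Their part was not tested.

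Between times the cold effect on StP2C in root was 1.15 larger at 9 h than at 3 h (SE 0.55, limma adjusted p 0.183; 13.7% of clones passed) and -1.84 at 27 h minus 9 h (SE 0.59, adjusted p 0.0638). Neither passed in the fit without a block, and with the replicate number as a block the 27 h minus 9 h difference passed (-1.90, SE 0.58, adjusted p 0.0499).

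In cold leaves StP2C had 1.10 and 1.99 at 9 h on the 2 arrays with a value, against -0.10 and -0.43 on 2 no-stress arrays. The arrays did not overlap, and the difference was 1.81 (SE 0.45, limma adjusted p 0.00679), a 3.51-fold change. At 27 h the cold leaves had 1.05 and 1.32, against 0.11 and -0.09 with no stress, and the difference of 1.17 did not pass (SE 0.45, limma adjusted p 0.0724). It passed with only these 2 groups in the fit (adjusted p 0.00734). At 3 h the cold leaves had 2.57, 1.36 and 1.64, against a single no-stress array at 0.00. Set against 0, the cold arrays of 3 h averaged 1.86 (SE 0.26, limma adjusted p 2.88e-05), which leaves out the spread of the no-stress arrays.

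The cold effect on StP2C at 9 h differed between tissues. It was smaller in leaf than in root (leaf minus root -2.08, SE 0.63, limma over all 72 arrays, adjusted p 0.0274; 9.64% of clones passed). At 27 h this difference was -0.88 and did not pass (SE 0.66, adjusted p 0.422). The leaf effects rest on 2 arrays a group. For the 9 h difference the replicate block was the only alternative computed (-2.04, limma adjusted p 0.0359). Leaving out any replicate number left too few leaf arrays with a value, and quantile normalization was not tried for it.

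Salt roots had StP2C at 1.27, 1.19 and 1.28 at 3 h, against -0.04, 0.01 and -0.11 in no-stress roots. Both groups were tight and well apart. The difference was 1.30 (SE 0.39, limma adjusted p 0.0189), a 2.46-fold change and number 123 of 8780 tested clones. These are the salt roots with the shoot marker medians of -0.35, -0.59 and -0.59 given for PKIN1. At 9 h the salt roots gave 0.36, -0.29 and 0.25 and overlapped the no-stress roots, with a difference of 0.28 (95% interval -0.52 to 1.08). At 27 h the difference was -0.27 (95% interval -1.17 to 0.63). The difference of the salt effect between 27 h and 3 h was -1.57 and did not pass (SE 0.59, limma adjusted p 0.157).

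In salt leaves StP2C gave 0.33 and 1.25 at 9 h, against -0.10 and -0.43 with no stress, and the difference of 1.05 did not pass (limma adjusted p 0.170). Heat gave no pass for StP2C in any of 4 tested comparisons. Its heat differences in root were -0.02, 0.02 and 0.12 at 3, 9 and 27 h, with 95% intervals between -0.82 and 1.02. Heated roots varied widely from array to array, with 0.46, -0.66 and -0.01 at 3 h.

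Setting the stresses against each other at the same time uses no control arrays. StCDPK4 was higher in cold than in heat in 6 of 6 comparisons, by 0.43, 0.61 and 0.56 in leaf and by 0.38, 0.69 and 1.02 in root at 3, 9 and 27 h. The shares of all clones that passed in these were 20.8, 29.9 and 22.3% in leaf and 13.9, 35.6 and 47% in root. At 27 h in root the cold arrays had 0.54, 0.68 and 0.60 and the heat arrays -0.46, -0.34 and -0.44 (limma adjusted p 8.36e-09). The 3 h differences ended in both tissues without replicate number 1 or 2 (adjusted p 0.0538 and 0.106 in leaf, 0.150 and 0.202 in root).

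StCDPK4 was also higher in cold than in salt in 3 of 6 comparisons, by 0.36 and 0.50 in 9 h and 27 h leaves and by 0.64 in 27 h roots. Background shares for these 3 were 7.75, 3.06 and 40.7%. The leaf difference at 9 h did not pass without replicate 1 (0.36, adjusted p 0.188) or replicate 2 (0.23, adjusted p 0.536), and that at 27 h ended without replicate 1 or 2 (0.288 and 0.396). Salt was above heat in 3 of 6 comparisons, all in root (0.55, 0.55 and 0.38), where 27.2, 13.4 and 21.3% of clones passed. The root salt minus heat pass ended without replicate 1 at 9 h (adjusted p 0.0754) and without replicate 1 or 2 at 27 h (0.178 and 0.0677).

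PKIN1 was higher in cold than in heat in 4 of 6 comparisons, reaching 1.01 in leaf at 27 h (limma adjusted p 5.31e-05) and 0.70 in root at 27 h (adjusted p 0.000426). Salt was above heat in 4 of 6, with 0.996 in root at 3 h the largest (SE 0.15, adjusted p 1.80e-05). In root at 3 h cold was below salt by -0.70 (SE 0.15, adjusted p 0.000860; 30.1% of clones passed), the 1 comparison of cold and salt that passed for PKIN1. Passes at 9 h in root ended without replicate 1 or 2 for cold minus heat (adjusted p 0.115 and 0.258) and without replicate 1, 2 or 3 for salt minus heat (0.132, 0.0962 and 0.0577). Those of salt minus heat in leaf ended without replicate 2 or 3, at 9 h (0.184 and 0.0735; 13.5% of clones passed) and at 27 h (0.0770 and 0.0884; 10.5% passed).

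StP2C was higher in cold than in heat in 4 of 4 tested comparisons, by 1.64 in leaf at 9 h and by 2.76, 3.88 and 1.93 in root. It was higher in cold than in salt in 4 of 6, by 1.57 in leaf at 3 h and by 1.45, 3.62 and 2.32 in root at 3, 9 and 27 h. Of all clones, 10% passed in that leaf comparison and 30.1, 26.7 and 40.7% in those of root. Salt exceeded heat in 1 of 4, in root at 3 h (1.32, SE 0.39, limma adjusted p 0.0133). The salt passes at 3 h of PKIN1 and StP2C in root thus differ in how cold stood to salt: PKIN1 was lower in cold than in salt, and StP2C was higher in cold than in salt. Without replicate 2 the cold minus salt and salt minus heat differences of StP2C in root at 3 h, and cold minus heat at 27 h, missed the threshold (adjusted p 0.0837, 0.206 and 0.0569). Cold minus salt in leaf at 3 h missed it without replicate 1 (1.14, adjusted p 0.233).

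**Figure D3:**
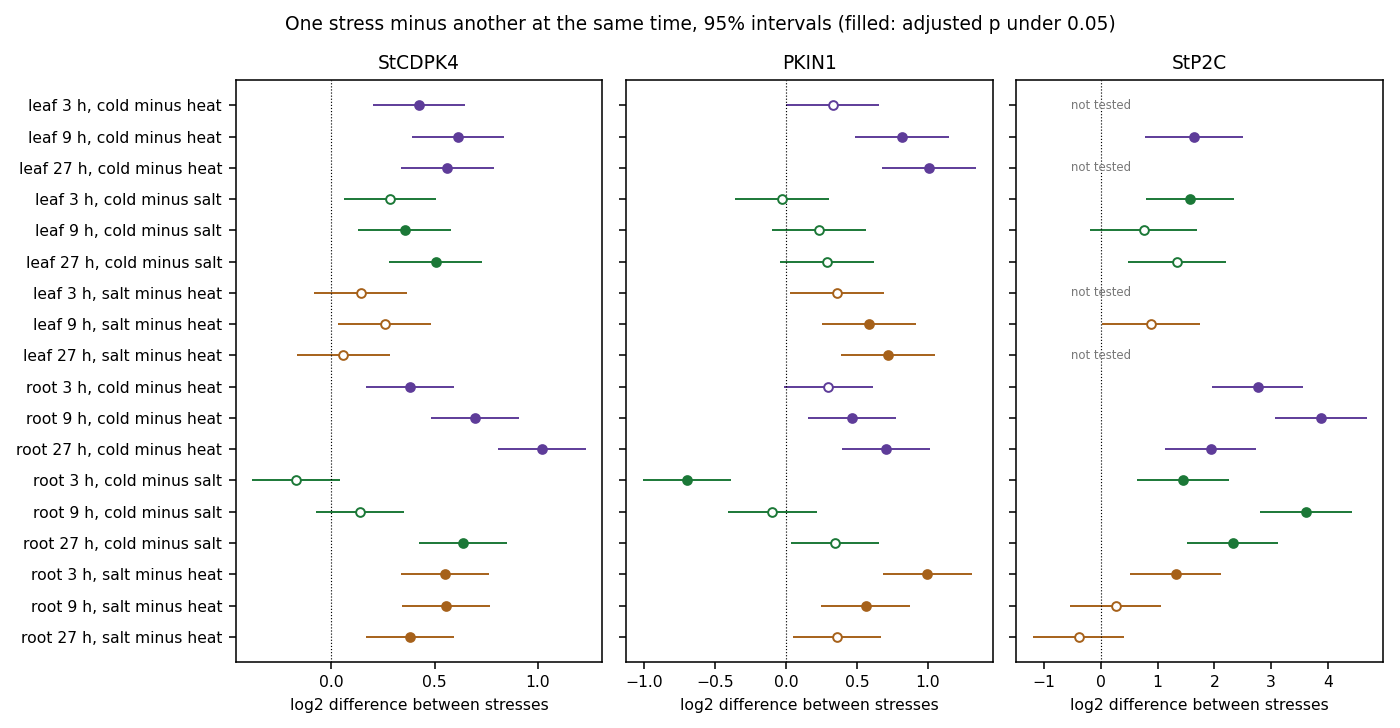
Log2 difference between 2 stresses at the same tissue and time (horizontal axis) for the 3 genes, with 95% intervals from limma. Filled points passed (adjusted p under 0.05), and comparisons with a value on too few arrays are marked as not tested. StCDPK4 is filled in all 6 cold minus heat comparisons, up to 1.02 in root at 27 h.

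Ordered by group mean, StCDPK4 was highest in cold roots at 27 h (0.60 ± 0.07, SD, n = 3), cold leaves at 27 h (0.50 ± 0.22) and cold leaves at 9 h (0.32 ± 0.13) and 3 h (0.22 ± 0.12). Neighbours in this order differ by less than the larger of their SDs, so the order is not resolved. It was lowest in heated roots at 9, 27 and 3 h (-0.54 ± 0.15, -0.42 ± 0.07 and -0.38 ± 0.05), followed by heated leaves at 9 h (-0.29 ± 0.02). The remaining groups lay between -0.20 and 0.17.

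PKIN1 was highest in cold leaves at 27 h (0.90 ± 0.10), salt roots at 3 h (0.83 ± 0.23), cold leaves at 9 h (0.67 ± 0.27), salt leaves at 27 h (0.61 ± 0.13) and cold roots at 27 h (0.58 ± 0.18). Here too neighbours differ by less than the larger SD. The 6 heated groups of PKIN1 were its lowest, the lowest of all being heated roots at 9 h (-0.20 ± 0.12). StP2C was highest in cold roots at 9 h (3.72 ± 0.40, n = 3) and 3 h (2.69 ± 0.55, n = 3). These groups lie further apart than their SDs, though the test of 9 h minus 3 h did not pass (limma adjusted p 0.183). Below them came cold roots at 27 h (1.98 ± 1.22, n = 3), cold leaves at 3 h (1.86 ± 0.64, n = 3) and 9 h (1.55 ± 0.63, n = 2), salt roots at 3 h (1.25 ± 0.05, n = 3) and cold leaves at 27 h (1.18 ± 0.19, n = 2), and neighbours among these differ by less than the larger SD.

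Over the 24 group means StCDPK4 and PKIN1 had a Pearson correlation of 0.814, StCDPK4 and StP2C 0.535, and StP2C and PKIN1 0.338. These are descriptions. The means share arrays and reference pools, and 3 means of StP2C rest on 1 array. Among 293 clones of 173 named genes with a mean in all 24 groups, those most like StCDPK4 were StMPK2, a MAP kinase (0.922), CDPK5, the calcium-dependent kinase StCDPK5 (0.895), and 30G, a 14-3-3 protein that binds phosphorylated partners (0.849). Most like StP2C were STWRKY8, a WRKY transcription factor (0.921), xth1, a xyloglucan-modifying enzyme of the cell wall (0.906), and StWIPK, a wound-induced MAP kinase (0.857). Most like PKIN1 were CCoAMT, a methyltransferase of lignin precursor synthesis (0.849), STUGE45, a UDP-glucose epimerase (0.84), and ChtA1, a chitinase (0.82).

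**Figure D4:**
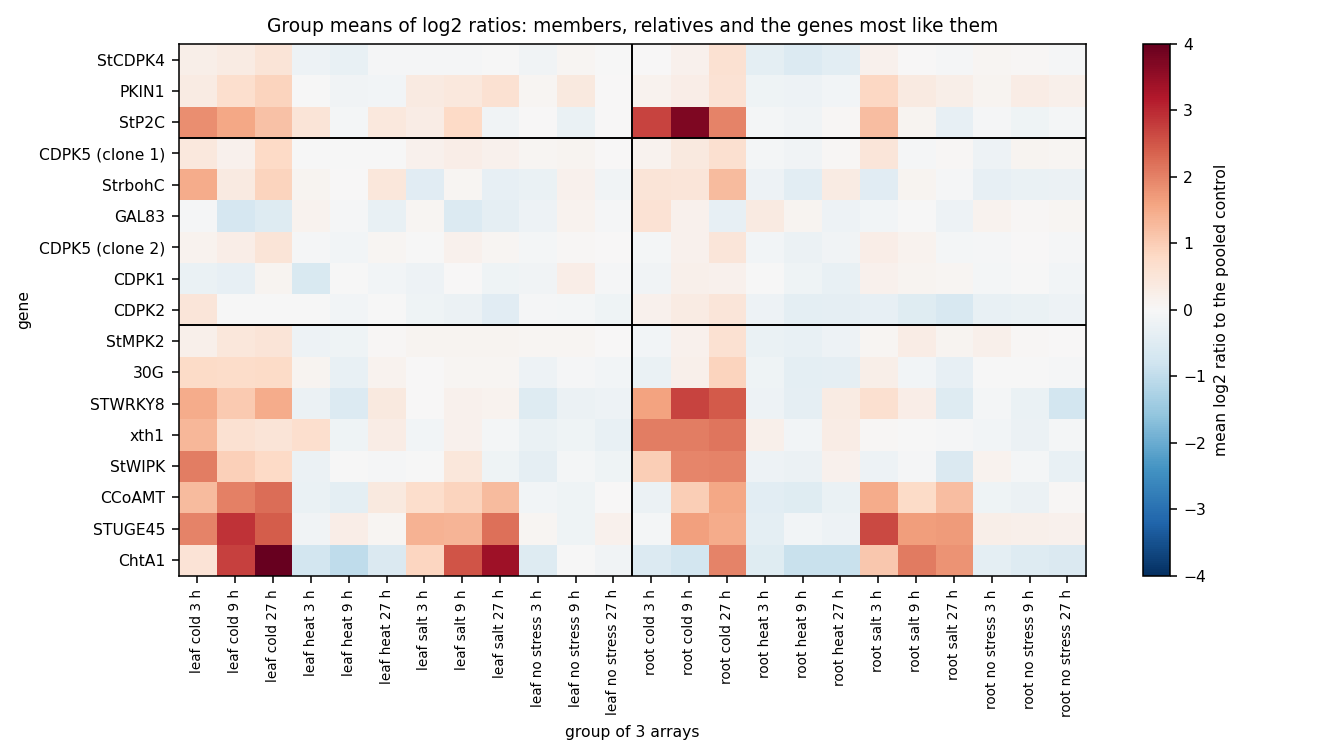
Mean log2 ratio to the pooled control (colour scale) in 24 groups of arrays (columns, leaf left of the line and root right of it) for the 3 genes, 5 relatives and the genes most like each of the 3 over these means. CDPK5 has 2 clones and serves both as a relative and as a gene like StCDPK4. The cold columns of StP2C are darkest in root at 9 h (3.72), where StCDPK4 is at 0.16 and PKIN1 at 0.27.

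The other calcium-dependent kinases found by name among the annotated clones were taken with GAL83 and StrbohC as the nearest relatives and partners. They were chosen after their values were seen. CDPK5 passed in the same 3 comparisons on both of its clones, all higher: leaf cold at 27 h (0.77 and 0.51), root cold at 27 h (0.57 and 0.55) and root salt at 3 h (0.67 and 0.29). StCDPK4 passed in the cold comparisons of these but not in salt roots at 3 h (0.10, SE 0.10, limma adjusted p 0.507). CDPK2 passed higher in 4 of 18, in cold leaves at 3 h (0.56) and in cold roots at all times (0.47, 0.60 and 0.69). CDPK1 passed in 0 of the 15 comparisons in which it was tested. No relative among these 4 clones was lower in heated roots by the test, and their difference from StCDPK4 was not tested. Related transcripts can bind the same cDNA spot, and how far they do so here was not tested.

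StrbohC, an NADPH oxidase of the family that calcium-dependent kinases act on, passed higher in 5 of 18 comparisons. In cold leaves it was at 1.77 at 3 h (SE 0.32, limma adjusted p 0.000341) and 1.03 at 27 h, and in cold roots at 0.85, 0.75 and 1.502. GAL83, the beta subunit that targets SnRK1 complexes, passed lower in 3 of 18. It was -0.79 in cold leaves at 9 h (SE 0.20, limma adjusted p 0.00432), -0.67 in salt leaves at 9 h and -0.40 in cold roots at 27 h (adjusted p 0.0474). PKIN1 did not pass in any of these 3 comparisons, at 0.28, 0.05 and 0.37.

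Of the other kinase and phosphatase clones, 14 in all, 4 of 12 tested were higher and 0 lower in cold leaves at 3 h, 3 of 13 and 0 at 9 h, and 6 of 14 and 1 at 27 h. Among all clones 9.84, 12 and 11.4% passed higher and 6.93, 10.5 and 10.1% lower in these comparisons. In cold roots 2 of 14 were higher and 2 lower at 3 h, 4 of 13 and 1 at 9 h, and 7 of 14 and 2 at 27 h, where 6.18, 14.1 and 20.4% of all clones passed higher and 6.99, 12.3 and 18.6% lower. At 27 h the list's median difference was 0.24 in cold leaves and 0.49 in cold roots, and that of all tested clones 0 and -0.003. With so few clones, nothing particular to the list is read from these counts. StWIPK was at 2.40 in cold leaves at 3 h (SE 0.30, limma adjusted p 3.19e-06) and StMKP1, a MAP kinase phosphatase, at 1.88 in cold roots at 27 h. StMKP1 is in the list with a repeat clone, as are CDPK5 and the MAP kinase StMPK4. Its value here is from the clone with its largest difference among passes. The 2 lower passes in cold roots at 3 h were IPMK, a kinase of inositol phosphates, at -3.15, and isi1, at -3.43. The tables used here give no role for isi1, which is counted in the list by its name alone. Heat gave no pass in leaves at any time, and in heated roots 0 of 14, 0 of 13 and 3 of 14 passed at 3, 9 and 27 h, the last with 1 higher and 2 lower. In salt roots 4 of 14, 3 of 13 and 2 of 14 were higher and 0 lower at 3, 9 and 27 h. Among all clones 12.1, 3.08 and 1.69% passed higher there and 9.41, 1.29 and 0.713% lower. In heated roots at 27 h 10.1% of all clones passed higher and 9.91% lower. Nothing particular to the list is read from the heat and salt counts either.

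SnRK1 partner subunits and 14-3-3 proteins gave at most 5 tested clones. These are clones of GAL83, 30G and 16R, with repeat clones of 16R, so GAL83 is the only SnRK1 subunit among them. In cold leaves 2 were higher and 0 lower of 5 at 3 h, with 30G at 0.94 (SE 0.15, limma adjusted p 7.13e-05), while 1 of 4 was higher and 1 lower at 9 h, as were 1 of 5 and 1 at 27 h. Cold roots gave 1 higher and 0 lower of 5 at 3 h, then 0 higher and 1 lower of 4 at 9 h, then 1 higher and 2 lower of 4 at 27 h. Salt leaves gave 0 higher at 9 and 27 h, with 1 and 2 lower of 5. In heated roots at 27 h 2 of 4 were lower, with 16R, a 14-3-3 protein, at -1.65 on the clone with its largest difference. Enzymes whose amount or phosphorylation is known to depend on SnRK1 in plants gave 2 higher and 0 lower of 7 in cold leaves at 3 h, 3 and 1 of 6 at 9 h, and 4 and 1 of 6 at 27 h. The passes at 9 h included AMYA1, an alpha-amylase, at 1.72 and SS16, a sucrose synthase, at 1.32. The enzyme list held clones of AMYA1, SS16, agpS2 and agpS3 only, with repeat clones of AMYA1 and SS16. For AMYA1 and SS16 the clone with the largest difference is given. Cold roots gave 0 higher and 2 lower of 5 at 3 h, then 1 higher and 0 lower at 9 h, then 0 higher and 1 lower at 27 h. Salt leaves gave 3 higher and 1 lower of 6 at 9 h, then 2 higher and 1 lower at 27 h. In salt roots 0 of 5 were higher and 1 lower at 3 h, while 3 of 5 were higher at 9 h and 1 of 5 at 27 h. The clone that passed at 27 h was agpS2 (0.62), a subunit of ADP-glucose pyrophosphorylase, which makes the sugar nucleotide for starch. Another subunit of that enzyme, agpS3, was at -1.56 in heated roots at 27 h. Heated roots gave 0 higher and 1 lower of 5 at 3 h, then 1 higher and 1 lower at 9 h and again at 27 h. The shares of all clones in cold are given above. In salt leaves at 9 and 27 h 3.72 and 5.77% of all clones passed higher and 3.76 and 6.09% lower. In salt roots 12.1, 3.08 and 1.69% passed higher at 3, 9 and 27 h, and 9.41, 1.29 and 0.713% lower. In heated roots 3.86, 3.71 and 10.1% passed higher at 3, 9 and 27 h, and 3.4, 2.11 and 9.91% lower. With so few clones, nothing particular to these lists is read from their counts. Of the dehydration and abscisic acid genes 1 clone, Lea, was tested. It was higher in cold leaves at 9 h (0.74) and lower in heated leaves at 9 and 27 h (-1.31 and -0.99) and in heated roots at 9 and 27 h (-0.85 and -0.87).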

How the data were processed

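The values are log2 ratios for each spot of each array, as deposited by the authors after their own processing. Per the labels, the query carried Cy3 and the reference Cy5, with no dye swap. How background, normalization and empty spots were handled is not given in the sources used here. Between -1 and 1 each value lies within 0.0015 of the log2 of a 2-decimal ratio, so the ratios had been rounded. Of the 15360 clones in the layout, printed at 2 spots in 48 blocks of 26 by 26 and inferred from the spot order (the 905 annotated pairs share an accession), 11037 had a value and 10156 of these had no annotation. Both spots were averaged. Gene names came from the platform annotation, updated through the RefSeq table of SolTub_3.0.

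limma 3.58.1 (R 4.3.3) was fitted to group means over the 36 arrays of a tissue, or over 72 for leaf minus root, without a block. Benjamini-Hochberg adjustment ran over all clones of a comparison. In data simulated for root cold at 9 h (8869 clones), 34% of log2 changes of 0.5, 90% of changes of 1 and 100% of changes of 2 and 4 were recovered. The changed clones were drawn at random and were far fewer than the 26.3% that passed in the real comparison. The recovered shares are therefore not those of the 3 genes. No depth exists for arrays, so 3 arrays a group limit the precision.

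The members, lists and tests were chosen with earlier results of these data known. Every clone annotated as a member was named, while clones without an annotation could not be matched. Up to 4 genes per list were named (largest absolute difference among passes), and the 3 named genes most correlated with each member. Clones with several symbols were excepted. Alternatives were a replicate block, 2-group fits, single spots, quantile normalization, median subtraction, array weights, fully measured clones, stress against 0, and leaving out arrays.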

Additional observations from a re-analysis of the deposited data

Results flagged for a closer look

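In 4 tests the effect of cold differed between tissues or times. The effect of 3 h of cold on StCDPK4 was larger in leaf than in root by 0.44 (SE 0.14, limma adjusted p 0.0494). Its arrays were at 0.32, 0.26 and 0.09 in cold leaves, against -0.02, -0.18 and -0.23 in no-stress leaves, and overlapped in root. The effect of 9 h of cold on StP2C was smaller in leaf than in root, at -2.08 for leaf minus root (SE 0.63, adjusted p 0.0274), where the root had 3 arrays a group and the leaf 2.

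In root the effect of cold on StCDPK4 was larger at 27 h than at 9 h by 0.53 (SE 0.15, limma adjusted p 0.0322) and larger at 27 h than at 3 h by 0.71 (SE 0.15, adjusted p 0.000926). The 3 cold arrays of StCDPK4 in root were close together at 27 h (SD 0.07) and wider apart at 3 h (SD 0.17). Both time tests share the 27 h arrays. With each replicate number left out in turn, the leaf minus root difference of StCDPK4 and the 27 h minus 9 h difference passed in none of 3 repeats. The leaf minus root difference of StP2C could not be repeated in this way.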

How the results depend on the processing

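The passes of StP2C against no stress (5), and those of StCDPK4 in cold leaves and cold roots at 27 h and heated roots at 9 h and of PKIN1 in cold leaves at 27 h and salt roots at 3 h, held under every alternative that could be computed. For StP2C in cold leaves at 9 h these were 9 alternatives, and none left out an array that had a value. For StP2C in cold roots at 27 h they were 11, and none left out a no-stress array that had a value. Against no stress StCDPK4 passed in 6 comparisons, but in 3 with only the 2 groups of the contrast in the fit. PKIN1 passed in 4, but in 2 on the first spot of the clone, in 7 with array weights and in 9 with stress arrays against 0. The cause was not tested. Against 0, PKIN1 in cold roots at 9 h turned to 0.27 (adjusted p 0.0428), against -0.04 with the no-stress arrays as control, which were themselves at 0.31. Leaving out 1 replicate in turn gave 4 to 6 passes for StCDPK4, 2 to 5 for PKIN1 (2 without no stress replicate 2) and 5 to 5 for StP2C. Leaf minus root then gave 0 for StCDPK4 (1 with all arrays), the differences between times 0 to 1 for StCDPK4 (2 with all arrays), and the stress pairs 6 to 12 for StCDPK4 (12 with all arrays), 5 to 8 for PKIN1 (9) and 6 to 10 for StP2C (9). In all these counts a comparison that could not be retested kept its result with all arrays. For StP2C only 3 cold comparisons could be retested without cold replicate 1, and 3 without cold replicate 2. Its unchanged count of 5 is thus partly fixed by the counting. Quantile normalization gave 2.51 and 1.15 for StP2C in cold roots at 9 and 27 h and 0.42 for StCDPK4 in cold roots at 27 h, all still passing. It also turned the heat difference of StCDPK4 in leaf at 9 h into a pass (-0.44, adjusted p 0.0270).

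Whether same-numbered arrays of the same tissue and time deviate together was checked in 54 pairs. The correlation of deviations was over 0.1 in 45 and ranged from -0.06 to 0.52. It was over 0.1 in all 3 pairs in 11 of 18 comparisons, those of cold roots among them. Leaf arrays were not paired with root arrays. Same-numbered arrays thus tended to deviate together, but not in every pair, and the labels do not say what a number marks, so the fits without a block were kept. With the replicate block, 1 time comparison of StP2C passed instead of 0 (root cold, 27 h minus 9 h, -1.90, adjusted p 0.0499), and no other count of passes moved. Values of StP2C in leaf rest on 1 to 3 arrays a group, and 4 of its comparisons could not be tested. Log2 differences of 0.5 were recovered in 34% of simulated cases, over randomly drawn clones and not for StCDPK4 or PKIN1 themselves. A missed threshold does not show that StCDPK4 or PKIN1 did not change.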
